A study of Caenorhabditis elegans with 2 samples.

Results

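The regions described here are places inside the protein-coding exons of the 5 autosomes where DAF-12 ChIP-seq signal was listed, away from gene starts. A region of the pooled list was taken as a coding exon region when its summit lay in an annotated coding sequence interval and more than 500 bp from every start of a protein-coding transcript. Regions on chromosome X and on the mitochondrial genome were left out. The rule found 3137 regions, out of 24119 autosomal regions and 30000 regions in all. The same rule found 3266 of the 24201 autosomal regions in the list of replicate 1, and 3137 of the 19079 in the list of replicate 2. The rule uses position alone and none of the signals, q-values or replicate overlaps. A summit in coding sequence does fix part of the base composition, which is therefore also compared with coding sequence at large.

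The study immunoprecipitated eGFP-tagged DAF-12 from whole C. elegans larvae at the L4 stage, as a mixed-sex population, in 2 biological replicates of 1 group. The worms were of strain OP222, which carries unc-119(ed3) on chromosome III and the inserted transgene wgIs222 with the tagged daf-12. The labels do not name the promoter of the transgene or say whether the replicates were separate cultures, and whole worms mix all tissues. The control libraries were not analysed here, and the read depth behind each region is unknown.

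DAF-12 is a nuclear hormone receptor that binds DNA through its zinc finger domain and whose ligands are the dafachronic acids, steroid hormones made from cholesterol. With ligand it favours reproductive development, and without ligand it acts with the corepressor DIN-1 towards the dauer larva, a dormant stage. Nuclear receptors of this kind read short hexamer half-sites in DNA, and for DAF-12 the hexamers AGTGCA and AGGACA are the known ones.

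The sequences below show what the coding exon regions look like and where the comparisons further on start from. The first set holds the summit and 75 bp on either side of it for 2 of the strongest regions that lie clear of untranslated exon sequence, then for the strongest such region below 30% GC and the strongest at 50% GC or more. Capitals mark coding bases and lower case marks intron. All are on the coding strand of their gene, in build ce11 (WBcel235) (RefSeq genome sequence). The windows are chrV:12514078-12514228 (plus strand) for lgmn-1, chrII:9166917-9167067 (minus) for T23G7.3, chrIV:11747773-11747923 (plus) for gem-4 and chrIII:11512991-11513141 (minus) for such-1.
lgmn-1: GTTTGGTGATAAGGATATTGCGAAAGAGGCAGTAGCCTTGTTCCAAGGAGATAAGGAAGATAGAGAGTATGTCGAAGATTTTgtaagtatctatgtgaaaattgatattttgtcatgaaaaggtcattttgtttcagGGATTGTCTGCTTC
T23G7.3: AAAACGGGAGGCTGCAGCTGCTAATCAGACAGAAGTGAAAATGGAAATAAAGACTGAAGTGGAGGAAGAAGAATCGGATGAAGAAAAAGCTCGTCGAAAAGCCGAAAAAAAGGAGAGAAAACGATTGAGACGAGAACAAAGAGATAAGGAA
gem-4: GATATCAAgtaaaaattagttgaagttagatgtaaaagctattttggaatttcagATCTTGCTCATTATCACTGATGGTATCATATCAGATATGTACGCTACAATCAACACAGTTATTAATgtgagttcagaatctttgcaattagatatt
such-1: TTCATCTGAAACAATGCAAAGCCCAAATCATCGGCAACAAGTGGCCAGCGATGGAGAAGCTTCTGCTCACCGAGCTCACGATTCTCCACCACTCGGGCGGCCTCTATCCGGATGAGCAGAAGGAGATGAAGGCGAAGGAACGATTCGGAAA

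The T23G7.3 window is coding from end to end, while the lgmn-1 window crosses a short intron and the gem-4 window holds a small exon, its introns and the end of the exon before it. The GC content of these windows is 36.4% in lgmn-1, 41.1% in T23G7.3, 29.1% in gem-4 and 53.0% in such-1.

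The second set holds the summit and 100 bp on either side of it for 3 regions with a DAF-12 hexamer. Each overlapped a region of both replicate lists and is again clear of untranslated exon sequence. Here capitals mark the hexamer AGGACA or its reverse complement and everything else is in lower case. The windows are chrV:9061259-9061459 (minus strand) for C25E10.12, chrIV:14246714-14246914 (minus) for srab-24 and chrIII:5272455-5272655 (minus) for ztf-8.
C25E10.12: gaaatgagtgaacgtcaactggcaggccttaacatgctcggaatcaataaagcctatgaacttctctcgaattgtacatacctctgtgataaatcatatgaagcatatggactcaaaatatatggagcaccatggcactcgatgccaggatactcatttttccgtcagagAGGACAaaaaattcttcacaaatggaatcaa
srab-24: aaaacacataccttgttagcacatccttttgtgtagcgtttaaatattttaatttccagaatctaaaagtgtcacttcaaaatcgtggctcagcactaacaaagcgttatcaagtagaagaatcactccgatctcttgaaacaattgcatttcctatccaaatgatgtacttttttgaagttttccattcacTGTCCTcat
ztf-8: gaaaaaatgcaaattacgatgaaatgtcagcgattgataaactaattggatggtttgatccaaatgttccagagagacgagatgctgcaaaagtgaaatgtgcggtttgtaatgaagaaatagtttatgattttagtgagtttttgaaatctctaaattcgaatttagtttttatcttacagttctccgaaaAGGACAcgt

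In C25E10.12 and ztf-8, which encodes a zinc finger protein, the hexamer is on the coding strand. In srab-24, a chemoreceptor gene, it is on the template strand. Each of these windows holds 1 hexamer, with no second copy beside it. The replicate 1 summits lay 7 bp (C25E10.12), 11 bp (srab-24) and 53 bp (ztf-8) from the pooled summits. Those of replicate 2 lay 275, 205 and 156 bp away, outside the printed windows. The region in ztf-8 ranked 1687 in replicate 1 and 7131 in replicate 2.

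Coding exons held fewer regions than their length would give at the autosomal average. The rule could be met at 15.2 Mb, or 18.4%, of the autosomal sequence, and these bases held 13.0% of the pooled autosomal regions (95% Wilson interval 12.6 to 13.4%). The share was 13.5% in replicate 1 and 16.4% in replicate 2. As a density, coding exons held 206 regions per Mb in the pooled list, 215 in replicate 1 and 206 in replicate 2. Sequence within 500 bp of a protein-coding start held 324, 319 and 257 regions per Mb in the same lists, introns of protein-coding genes held 292, 298 and 212, and sequence outside protein-coding genes held 310, 306 and 235. Noncoding exons of protein-coding genes, 2.86% of the sequence, held 405, 409 and 305. In replicate 2 the coding and intron densities lay close together, and in the pooled and replicate 1 lists coding exons were the lowest of these classes before base composition is taken into account. Regions are not replicates, neighbouring ones can share reads, and the interval covers counting error only.

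**Figure D1:**
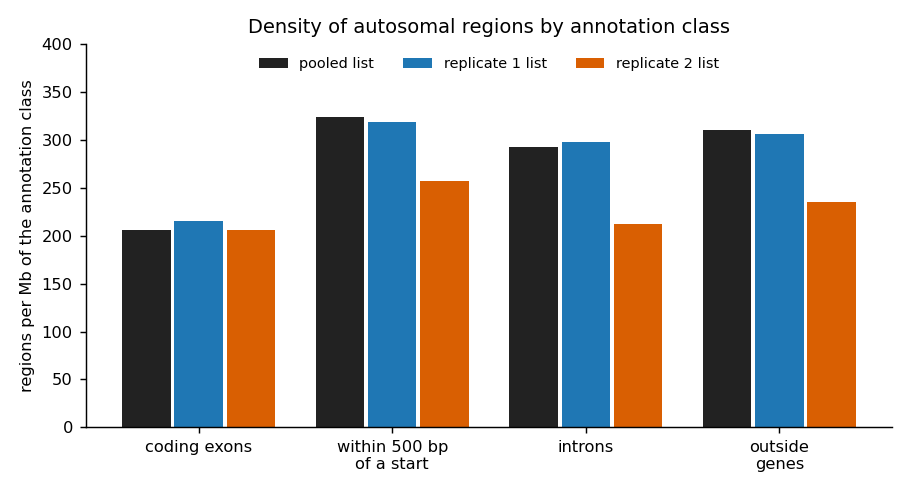
Autosomal regions per Mb (vertical axis) in 4 annotation classes, with 1 bar per list for the pooled, replicate 1 and replicate 2 lists. Coding exons held 206, 215 and 206 regions per Mb, below the other classes in each list.

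The signal of the coding exon regions lay somewhat below the middle of the list. Signal is the authors' enrichment value, on a scale that is not stated, and it is compared only within a list. In the pooled list it ran from 4.12 to 18.8 in coding exon regions, with a median of 5.50 and quartiles of 4.69 and 6.78, against a median of 5.71 over all autosomal regions. The median rank percentile, on which 100 is the strongest region, was 44.1 for coding exon regions, against 49.4 for all autosomal regions. It was 46.1 against 49.8 in replicate 1 and 48.9 against 49.6 in replicate 2. The gap was thus largest in the pooled list and under 1 percentile in replicate 2, where regions in introns were lower, at 46.8. Coding exon regions made up 8.47% of the autosomal regions among pooled ranks 1 to 1000 (63 of 744), 9.93% at ranks 1001 to 5000, 12.3% at 5001 to 10000, 13.1% at 10001 to 20000 and 14.9% at 20001 to 30000. Their share was thus higher in each lower tier of the list.

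Few coding exon regions passed a q-value of 0.05 in the pooled list. There were 112 of 3137 (3.57%), against 5.43% of all autosomal regions. At a q-value below 0.01 there was 0.0319%, which is 1 region, and all autosomal regions were not counted at that limit. In replicate 1, 458 of 3266 coding exon regions passed 0.05 (14.0%), against 16.4% of all autosomal regions. In replicate 2, 1832 of 3137 passed (58.4%), against 59.1% of all. The share passing differed far more between the lists than between coding exons and the rest. The list thresholded for reproducibility between replicates held 0.0498% of the pooled autosomal regions (12) and no coding exon region, and 0 of 3137 allows a share of up to 0.0956% (3 counts). The strongest coding exon region stood at rank 55 of the pooled list.

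Among the strongest coding exon regions, single genes of many kinds appear. The strongest lies in vab-8, which encodes a kinesin-like protein needed for cell and axon migration. Its signal was 18.8 in the pooled list, 6.79 in replicate 1 (rank 3053) and 8.13 in replicate 2 (rank 124). The summits of the replicate regions lay 20 bp and 36 bp from the pooled summit, so the same place in the exon was listed in both. The next, in lgmn-1 (chrV:12514001-12514304), which encodes a legumain-type protease, had a pooled signal of 17.0. It overlapped a region of signal 10.4 in replicate 1 (rank 284) and none in replicate 2. Then came the last coding exon of txt-18 (chrII:6345160-6345463), with a signal of 16.4 in the pooled list, 8.12 in replicate 1 (rank 1327) and 5.03 in replicate 2 (rank 2062).

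The 25 strongest coding exon regions had signals of 12.5 to 18.8, and 18 of them overlapped a region in both replicate lists. A region of replicate 1 overlapped 23 and a region of replicate 2 overlapped 20. Of all autosomal regions at pooled ranks 1 to 1000, a wider range than that of these 25, 61.6% overlapped both lists. The pooled signal that picked the 25 comes from the same reads, so these overlaps are no trait of coding exons. The 25 regions lay on all 5 autosomes, in 25 different genes, and none had a second copy in the genome. Among them was dcr-1, the Dicer ribonuclease that makes small RNAs, with a pooled signal of 14.8 and ranks of 566 in replicate 1 and 21934 in replicate 2. The region in stam-1, an adaptor of endosomal sorting, had ranks of 4652 and 19629, and that in utp-20, a ribosome biogenesis factor known from yeast, had ranks of 152 and 14142. The region in R05H10.7 showed the reverse order, with a rank of 12086 in replicate 1 and 313 in replicate 2. In each of these 4 genes the region stood far higher in 1 replicate list than in the other. In chhy-1, a hyaluronidase-like enzyme, and gem-4, a copine, the region was strong in replicate 1, at ranks 218 and 185, and had no counterpart in replicate 2. The region in ncx-6, a sodium-calcium exchanger, stood closer in both lists, at ranks 4683 and 3199. The other genes of the 25 strongest regions were T23G7.3, Y50D7A.3, plpr-1, srab-24, Y105C5A.1, F58E6.11, F29F11.20, F38E1.6, F10E9.12, F36H9.7, T25B9.6, T24E12.3, C26C6.4, F31E3.12 and R10H10.7. Of these, srab-24 and F31E3.12 had a DAF-12 hexamer within 100 bp of the summit.

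Recurrence of coding exon regions between replicates was low, and so was that of all autosomal regions. Of the 3137 pooled regions, 470 overlapped a region of both replicates by at least 1 bp (14.98%), against 17.3% of all autosomal regions. Another 1364 overlapped replicate 1 alone, 698 overlapped replicate 2 alone and 605 overlapped neither. In all, 58.5% overlapped replicate 1, against 61.9% of all autosomal regions. For replicate 2 the shares were 37.2% and 38.5%. The pooled list was made from both replicates, so the share that overlaps both also depends on pooled signal. Within tiers of pooled rank it was 58.7% of coding exon regions at ranks 1 to 1000, against 61.6% of all autosomal regions, and 41.6% against 41.1% at ranks 1001 to 5000. It was 23.3% against 23.7%, 11.99% against 11.8% and 5.01% against 6.16% in the lower tiers. At like rank, coding exon regions and autosomal regions in general thus recurred at shares within 3 percentage points of each other.

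**Figure D2:**
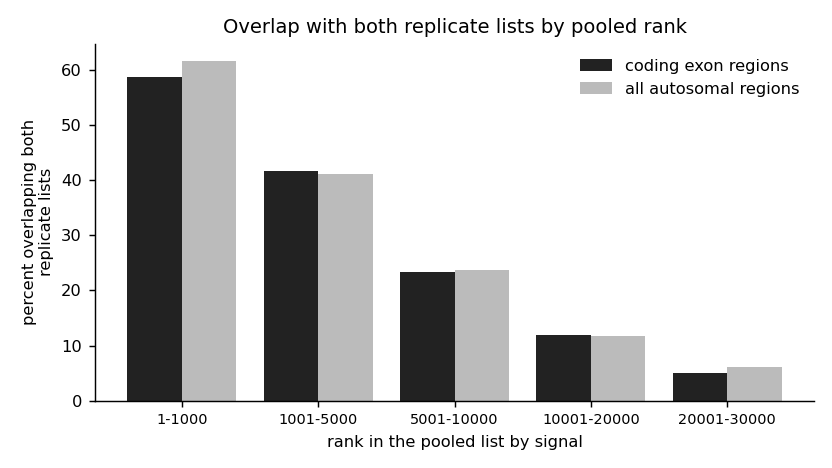
Percent of pooled regions that overlap a region in both replicate lists (vertical axis) by tier of pooled rank (horizontal axis), for coding exon regions (black) and all autosomal regions (grey). In coding exons the share was 58.7% in the first tier and 5.01% in the last.

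The replicate lists can also be set against each other without the pooled list. Of the 3266 coding exon regions of replicate 1, 489 overlapped a region of replicate 2 (14.97%), against 17.7% of all autosomal regions of replicate 1 and 11.8% of windows of 304 bp laid every 200 bp along the eligible coding sequence. Of the 3137 coding exon regions of replicate 2, 527 overlapped a region of replicate 1 (16.8%), against 22.1% of all autosomal regions and 13.2% of windows of 260 bp. Coding exon regions thus overlapped the other replicate a little more often than coding windows at large, and less often than autosomal regions at large. The overlap moved with base composition. In replicate 1 it was 17.0% of coding exon regions below 35% GC, against 14.9% of windows, 17.6% against 12.9% at 35 to 40% GC, 10.04% against 10.7% at 40 to 45% and 9.51% against 8.43% from 45%. In replicate 2 it was 21.8% against 18.6%, 17.8% against 14.6%, 12.6% against 11.0% and 10.7% against 8.24% in the same steps. Its part in the recurrence was not tested.

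The strongest coding exon regions of a replicate were found in the other replicate at shares near those of the whole class. Of the 100 strongest coding exon regions of replicate 1, 18 overlapped a region of replicate 2, against 36% of its 100 strongest autosomal regions, and for the 1000 strongest the shares were 17.8% and 24.4%. Of the 100 strongest of replicate 2, 15 overlapped a region of replicate 1, against 33% of its 100 strongest autosomal regions. For the 1000 strongest they were 17.6% and 26%. Coding exon regions are a minority of each list, so their 100 strongest reach further down the ranks than the 100 strongest autosomal regions, and these pairs are not at like rank. Over the 470 pooled coding exon regions found in both lists, Spearman's rho between the replicate ranks was 0.0028, and over all autosomal regions found in both it was -0.0048. These are descriptions across regions that share libraries. They cover only regions present in the pooled list and in both replicate lists. Such a choice by combined signal can itself lower rho, so rho here is no measure of replicate agreement. Some of the 470 share the same replicate regions, as those in sru-42 do. A single coding exon region stood within the first 1000 ranks of both replicates, 3 within the first 2000 and 17 within the first 5000. The same counts over all autosomal regions were 20, 59 and 258.

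The coding exon regions that ranked best in both replicates were chosen after their values were seen. The first of them lies in exon 4 of 5 of C25E10.12 (chrV:9061207-9061510), with a rank of 929 in replicate 1 and 368 in replicate 2. Its rank in the pooled list was only 11320, with a signal of 6.33, and the replicate 2 summit lay 275 bp from the pooled summit while that of replicate 1 lay 7 bp away. It is thus a place where the replicates were listed side by side and not at 1 summit. K07G5.5 had ranks of 202 and 1490, with summits 182 bp and 53 bp from the pooled one. In nhr-96, a nuclear hormone receptor gene, the ranks were 1065 and 1947 and the pooled signal was 8.10. For txt-18, with ranks of 1327 and 2062, and plpr-1, with 1354 and 2285, the replicate summits lay within 48 bp of the pooled summit. The region in srab-24 (chrIV:14246662-14246965) had ranks of 2662 and 1375, with its replicate 2 summit 205 bp away. Further regions of this kind lay in gpa-2, a G protein alpha subunit (1835 and 2793), ift-74, a component of intraflagellar transport in cilia (3554 and 3531), glt-6, a glutamate transporter (2194 and 3662), and mua-3, a transmembrane protein of muscle attachment (2344 and 4145).

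**Figure D3:**
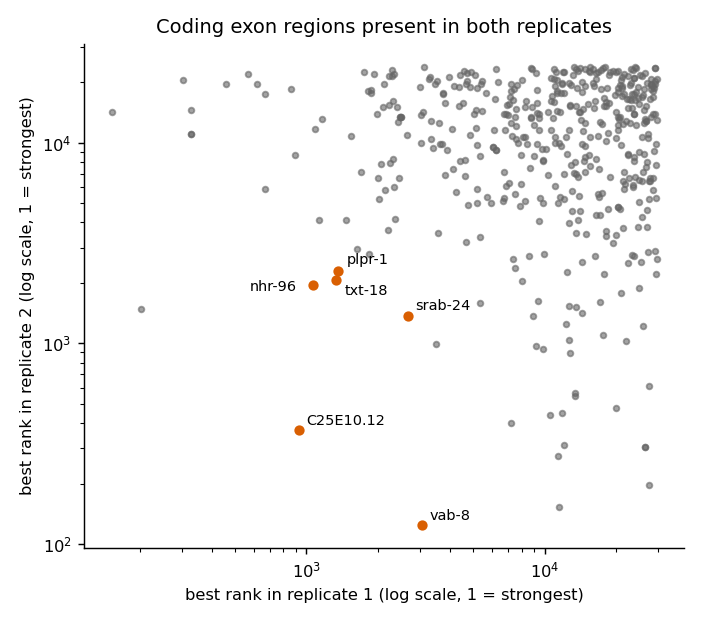
Best rank in replicate 1 (horizontal axis, log scale) and in replicate 2 (vertical axis, log scale) of the 470 pooled coding exon regions that overlap a region of both lists, 1 point each, with rank 1 the strongest. The points fill the upper right without a slope (rho 0.0028), and the 6 orange points are named by gene.

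Coding exon regions were denser and stronger where GC content was low. The median GC content within 100 bp of the summit was 37.3% in the pooled coding exon regions, 37.3% in those of replicate 1 and 38.3% in those of replicate 2. Over 76022 such windows laid along the eligible coding sequence it was 39.8%. All pooled autosomal regions had a median of 32.8%. Below 30% GC, coding exons held 408 regions per Mb in the pooled list, and the density was 308 at 30 to 35%, 240 at 35 to 40%, 162 at 40 to 45%, 98.2 at 45 to 50% and 83.2 from 50% upwards. In replicate 1 it was 405 per Mb below 30% GC and 104 from 50% upwards, and in replicate 2 it was 369 and 123. The order held at every step in each of the 3 lists. Signal moved the same way, with a median of 5.90 below 30% GC and 4.87 from 50% upwards. So did the share at a q-value below 0.05, which was 6.59% (12 regions) below 30% GC and 0% (0 of 80) from 50% upwards.

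Set against autosomal sequence of the same GC content, the deficit of coding exons was smaller. At 35 to 40% GC, where coding sequence is most abundant, coding exons held 240 regions per Mb and the rest of the autosomes 263 in the pooled list. The values were 248 and 272 in replicate 1, and 229 and 229 in replicate 2. Below 30% GC they were 408 and 417 in the pooled list, and 369 and 266 in replicate 2. At 45 to 50% they were 98.2 and 141 in the pooled list, and 133 and 140 in replicate 2. At like GC the coding density was thus below that of the rest at each step in the pooled list, while in replicate 2 it was above it below 30% GC and at 40 to 45% (181 against 174). Against introns alone, coding exons at 35 to 40% GC held 240 and introns 231 regions per Mb in the pooled list, 248 and 255 in replicate 1, and 229 and 195 in replicate 2. Below 30% GC they held 408 and 388 in the pooled list, at 30 to 35% 308 and 327, and at 40 to 45% 162 and 161. From 45 to 50% they held 98.2 and 134, and from 50% upwards 83.2 and 124, where the rest of the autosomes held 116. At like GC the pooled coding density thus lay on both sides of that of introns below 45% GC and under it from 45% upwards. The lists give no values for input DNA, so the part of base composition in what was sequenced was not tested.

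**Figure D4:**
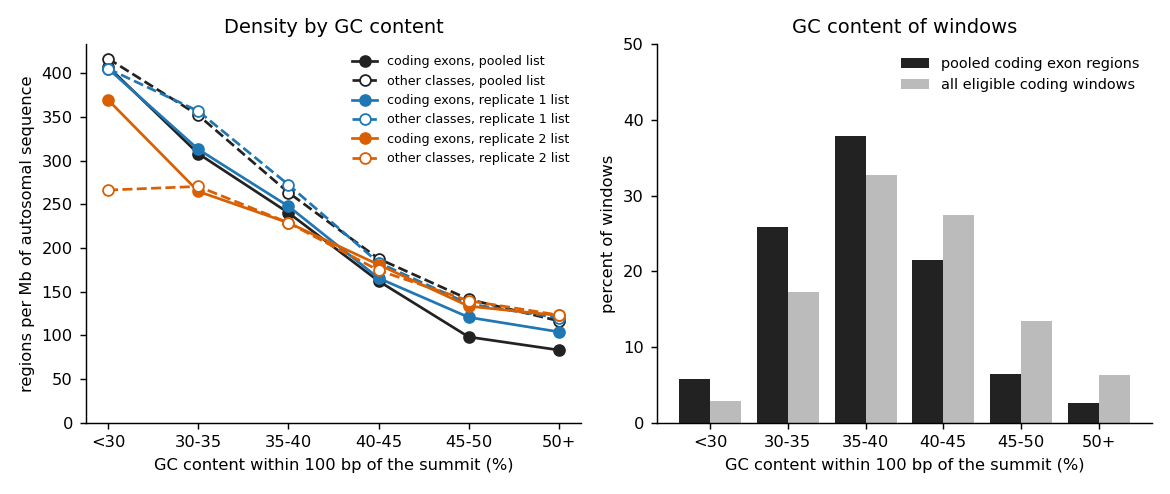
Left, regions per Mb of autosomal sequence (vertical axis) by GC content within 100 bp of the summit (horizontal axis) for coding exons (filled, solid) and all other autosomal classes (open, dashed) in 3 lists. Right, percent of windows by GC content for pooled coding exon regions (black) and for all eligible coding windows (grey). In coding exons the pooled density was 408 per Mb below 30% GC and 83.2 per Mb from 50% upwards.

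Known DAF-12 hexamers were no more common in coding exon regions than in coding sequence at large. AGTGCA or AGGACA on either strand, at most 100 bp from the summit, was present in 389 of 3137 regions (12.4%), against 13.3% of the 76022 coding windows. The shares were 12.3% in replicate 1 and 11.9% in replicate 2. AGTGCA alone was in 7.20% of regions, against 7.38% of windows, and AGGACA in 5.55%, against 6.32%. The coding windows had a higher median GC than the regions (39.8% against 37.3%), and hexamer shares at like GC were not compared. All pooled autosomal regions, which have a lower GC content, had a hexamer in 10.5%. Among the 112 coding exon regions at a q-value below 0.05, 14 had a hexamer (12.5%), and among the 25 strongest there were 2. By tier of pooled rank the share was 11.1% (7 of 63) at ranks 1 to 1000 and 12.6% at ranks 20001 to 30000, with no rise towards the strong end. A direct repeat of the hexamers with a spacer of 5 bp was in 0 of 3137 coding exon regions, which allows a share of up to 0.0956%, in 7 of all 24119 autosomal regions and in 7 of the 76022 coding windows (0.00921%). A match is a description of the letters and not a bound site.

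Within genes, the coding exon regions lay where the rule leaves coding sequence. The summit was in an internal coding exon in 2498 (79.6%), against 81.6% of the coding windows, and in the last in 602 (19.2%), against 17.3%. It was in the first in 35 (1.12%, against 0.931%) and in a gene with a single coding exon in 2. With the coding sequence cut in 3 equal parts, 1298 fell in the part at the 3′ end (41.4%, against 40.9% of windows), 1212 in the middle part (38.6%, against 39.4%) and 627 in the part at the 5′ end (19.99%, against 19.7%). These shares were all within 2 percentage points of those of the windows. All 3137 regions were 304 bp wide, and a median of 74.3% of the region was coding (quartiles 58.2 and 85.9%), against 79.9% for windows of that width along the eligible coding sequence. In 518 regions every base was coding (16.5%), against 22.4% of windows. The regions therefore held somewhat more intron or other noncoding sequence than coding windows at large.

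The density fell with the length of the stretch of coding sequence around the summit. It was 264 per Mb in coding stretches of 150 bp or less, 229 at 151 to 300 bp, 184 at 301 to 600 bp and 150 in longer ones. The order was the same in replicate 1 (268, 234, 197 and 164) and in replicate 2 (235, 217, 200 and 173). GC content moved with it, with a median of 36.3% in windows of the shortest stretches and 42.3% in those of the longest. Among windows of 35 to 40% GC alone the pooled density was 251, 249, 226 and 226 per Mb. Along the chromosome, with each autosome cut in 3 equal parts, the middle parts held 248 regions per Mb of eligible coding sequence in the pooled list and the outer parts held 178. The values were 256 and 186 in replicate 1, and 238 and 184 in replicate 2. Windows in the middle parts had a median GC content of 38.3% and those in the outer parts of 40.8%. At 35 to 40% GC the middle parts held 259 and the outer parts 222 regions per Mb. In both comparisons the gap was narrower at like GC.

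The density was lowest far from a start. The median distance was 1371 bp and the farthest summit lay 20487 bp away. The density was 218 per Mb from 501 to 1000 bp, 209 from 1001 to 2000 bp, 203 from 2001 to 5000 bp and 155 beyond. Median GC over the windows was 38.8% in the nearest step and 42.3% in the farthest, and at 35 to 40% GC the densities were 250, 234, 242 and 207. By chromosome it ran from 196 per Mb on I to 221 on V. Just inside the limit of the rule, at 501 bp, the regions in col-118, dos-1 and C35D10.12 had signals of 4.87, 7.50 and 4.76. Just outside it, those in clc-27 and ehbp-1 at 500 bp and in sumv-1 at 499 bp had 4.74, 5.42 and 4.31. The rule left out 1424 regions with a coding summit nearer to a start, whose median signal was 5.61. Another copy in the genome, of at least 90% identity over at least 150 bp, was found for 41 coding exon regions (1.31%), with a median signal of 5.79, against 5.49 for the others. The first of these by signal lie in nhr-257 and C05D12.2, and the actin gene act-2 is among them, so their reads could come from the copies. A noncoding gene lay within 10 bp of the summit in 19 regions.

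The coding exon regions were spread thinly over many genes. They lay in 2687 of the 15310 autosomal protein-coding genes with eligible coding sequence. Of these genes, 2324 held 1 region, 302 held 2 and 61 held 3 or more. The eligible coding sequence had a median of 4720 bp in genes with 3 or more regions, 1168 bp in all genes with a region and 710 bp in all genes with any. A coding exon region was listed in all 3 lists in 605 genes, though not always at the same place. In all, 66 pooled regions overlapped another coding exon region of the list.

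Genes with the most regions had long coding sequences. The titin gene ttn-1, which encodes the giant spring protein of muscle, held 8 pooled regions in 54369 bp of eligible coding sequence. The replicate 1 list had 10 there and the replicate 2 list 9. Its strongest had a signal of 9.06, and at 147 per Mb its density was below the 206 of all genes. The obscurin gene unc-89, which encodes a protein of the muscle M-line, held 5 pooled regions, beside 2 of replicate 1 and 8 of replicate 2. Of the 5, 4 overlapped replicate 2 alone and 1 replicate 1 alone, so none recurred. The dynein heavy chain gene che-3, whose product drives transport back down the cilium, held 6 pooled regions in 11853 bp, beside 6 of replicate 1 and 3 of replicate 2. The strongest, in coding exon 20 of 48 (chrI:8074263-8074566), had a signal of 10.2 and overlapped both replicates, at ranks 3334 and 12755. The other 5 had signals of 4.48 to 8.08, and none of them overlapped both.

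The other genes with most regions had shorter coding sequences. F27D4.6 held 5 regions in 3586 bp, of which a pair overlapped each other, with signals of 4.28 to 7.36. C27B7.7 held 4 in 4098 bp, with a strongest signal of 11.7, and 2 of the 4 overlapped both replicates. Also with 4 regions were rig-4, a neuronal immunoglobulin-domain adhesion protein (strongest 9.72), fhod-1, a formin of muscle (8.40), twk-11, a potassium channel (8.34), T04F3.1 (8.32) and C46A5.4 (7.71). Replicate 1 had 2 regions in rig-4, 1 in fhod-1, 1 in twk-11, 5 in T04F3.1 and none in C46A5.4. Replicate 2 had 4, 3, 1, 1 and 2 in these genes. The counts per gene thus differed between the replicates in most of them.

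Among gene lists with at least 40 kb of eligible coding sequence, chemoreceptors, nuclear hormone receptors and F-box proteins, all of low GC content, had the highest pooled densities. The replicate lists gave other orders. In replicate 1 the highest was that of moulting and apical matrix genes, at 279 per Mb and a median GC of 40.8%. In replicate 2 it was that of translation factors, at 260 per Mb and 41.8% GC. Over all genes the pooled density was 206 per Mb (exact Poisson interval 199 to 214, counting error only) at a median GC of 39.8%. The chemoreceptor genes, the largest gene family of the worm, held 194 regions in 185 of 1261 genes with eligible sequence, at 241 per Mb (208 to 277), 265 in replicate 1 and 242 in replicate 2. Their coding windows had a median GC of 35.3%. At the pooled densities of their GC steps over all genes these windows would hold 214 regions. In srab-24 the region was among the 25 strongest, srx-115 and srz-97 held 2 regions each with strongest signals of 9.03 and 8.91, and in sru-42 the 2 regions overlap and share the same replicate regions. F-box and MATH proteins, adaptors of protein degradation, held 63 regions at 243 per Mb (187 to 311), with 220 in replicate 1 and 189 in replicate 2, against 62.6 regions at the densities of their GC steps. The strongest lay in fbxa-3, with a signal of 12.2, a rank of 204 in replicate 1 and no region in replicate 2.

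Nuclear hormone receptor genes, to which daf-12 itself belongs, held 55 regions in 46 of 246 autosomal genes, at 258 per Mb (194 to 336), 272 in replicate 1 and 235 in replicate 2. Their windows had a median GC of 37.3% and would hold 49.98 regions at the densities of their GC steps. Of the 55, 6 passed a q-value of 0.05 (10.9%, against 3.57% of all coding exon regions) and 11 overlapped both replicates (20%, against 14.98%). These are small counts given without an interval. The 11 include nhr-219 more than once, through the same replicate regions. Among the 6 is a region in nhr-257 that has another copy in the genome. The strongest of the 55 lay in coding exon 3 of 10 of nhr-19 (chrII:9600187-9600490), with a signal of 12.1. It ranked 3748 in replicate 1 and 17749 in replicate 2. A second region of nhr-19 had a signal of 5.90 and overlapped both as well. In nhr-86 there were 3 regions, with signals of 9.57, 8.44 and 5.86. The first 2 of these overlapped replicate 2 alone, at ranks 1960 and 5953. In nhr-64 the 3 regions had signals of 4.49 to 6.31.

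**Figure D5:**
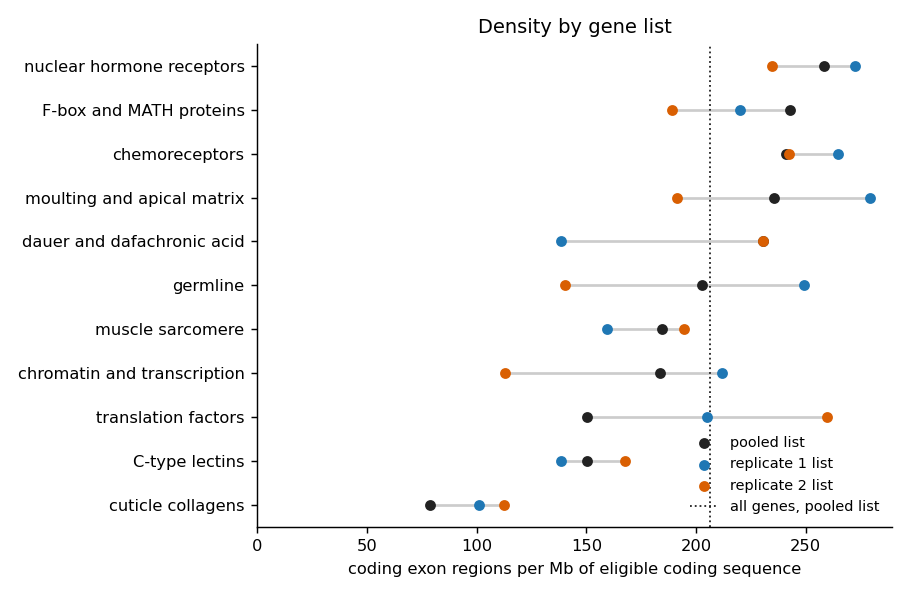
Coding exon regions per Mb of eligible coding sequence (horizontal axis) in gene lists with at least 40 kb of it, with 1 point per list of regions and a grey bar over their range. The dotted line is the pooled density over all genes (206 per Mb). Nuclear hormone receptors lay above it in all 3 lists, and cuticle collagens (78.6, 101 and 112 per Mb) below.

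Cuticle collagens, which form the exoskeleton that L4 larvae replace at the moult, held the fewest regions for their length among the lists with at least 40 kb of eligible sequence. There were 7 in 145 genes, at 78.6 per Mb (31.6 to 162), with 101 in replicate 1 and 112 in replicate 2. Their windows had a median GC of 55.7%, and at the densities of their GC steps they would hold 8.80 regions. The strongest was in sqt-3 (8.74), where the window had 39.3% GC and both replicates had a region, at ranks 10836 and 13190. None passed a q-value of 0.05. The ribosomal protein genes are short, and 39 of 76 had any eligible sequence, in all 7.86 kb. They held 0 pooled regions, 0 in replicate 1 and 3 in replicate 2. The interval of the pooled density reaches 469 per Mb, so a difference from other genes was not detectable.

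The other lists gave intervals that include the density of all genes, as did those of nuclear hormone receptors and F-box and MATH proteins. Muscle sarcomere genes held 37 regions at 184 per Mb (130 to 254), of which ttn-1, unc-89 and the ryanodine receptor unc-68 held 17. Genes of moulting and the apical matrix held 16 at 235 (135 to 382), among them 4 in the lipoprotein receptor lrp-1 and 3 in the fibrillin-like fbn-1. C-type lectins, many of them induced by pathogens, held 26 at 150 (98.1 to 220), with 1 region past a q-value of 0.05, in clec-90 (signal 10.6). Translation factors held 11 at 150 (75.04 to 269), chaperones 7 at 289 (116 to 595), and germline genes 13 at 203 (108 to 346). Genes of chromatin and transcription held 13 at 183 (97.7 to 314), among them a region in the histone demethylase spr-5 (9.69) and 2 in lin-35, the Rb homologue (8.89 and 5.34). The nuclear respiratory chain held 5, glycolysis 2, intestinal genes 2, histones 1 and major sperm proteins 1. At the densities of their GC steps the respiratory chain would hold 2.16 regions, chaperones 3.72 and C-type lectins 32.8. The observed counts were 5, 7 and 26, and the interval of each list covers its gap (for the respiratory chain 119 to 853 per Mb). A departure from the GC steps was therefore not detectable in these lists. For muscle sarcomere and germline genes the values were 32.5 and 11.6, against 37 and 13 observed.

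Genes in the pathway of DAF-12 held small counts of regions, at pooled densities with intervals that include the 206 per Mb of all genes. Genes of dauer formation and dafachronic acid held 10 regions in 9 of 21 genes, at 231 per Mb (111 to 424), with 138 in replicate 1 and 231 in replicate 2. None passed a q-value of 0.05 and none overlapped both replicates, where 10 regions are too few to set against the 3.57% and 14.98% of all coding exon regions. In din-1, the corepressor of DAF-12, 2 regions had signals of 6.37 and 5.43 and overlapped replicate 1 alone, the first at rank 797. It held a hexamer. In scd-2, a receptor tyrosine kinase, the region had a signal of 8.39 and overlapped neither replicate, and in daf-4, a type II TGF-beta receptor, it had 5.78 and overlapped replicate 1 alone. Heterochronic genes, which set the timing of larval cell fates, held 6 regions in 4 of 14 genes at 233 per Mb (85.4 to 506). Of these, 3 lay in lin-41, a let-7 target that blocks the adult programme, with signals of 7.51, 5.14 and 5.08. The first 2 overlap each other and share 1 region of replicate 2, at rank 2855, and the last overlapped replicate 1 alone. The regions in sea-2 (5.83) and alg-2 (4.74) did not overlap both replicates either.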

How the data were processed

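Chromatin immunoprecipitation with sequencing was done on whole worms, and the labels name 2 biological replicates of 1 group. Both have a list of regions of their own, and the series adds a pooled list and a list thresholded for reproducibility. The signal of a region is the enrichment value the authors deposited, on a scale that is not stated, and it was compared only within a list. The deposited −log10 q-values were turned into q-values and set against 0.05. The sources used here do not give the aligner, the peak caller or the reproducibility threshold. The lists on ce11 were used.

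Starts, coding sequence and genes came from Ensembl release 115 of WBcel235, which has the ce11 coordinates. The summit decided the class of a region. A coding base is eligible when it meets the same positional rule, and densities are regions per Mb of such bases. Windows laid every 200 bp along the coding sequence gave the background for GC content, hexamers and overlap. Copies were searched with blastn 2.17.0, and all else was done in Python 3.11.15 (pandas 2.3.3, numpy 2.4.6, scipy 1.17.1). The classification was tested on simulated data, where 1000 regions were all placed in the right class.

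The rule, the 19 gene lists and the hexamers were chosen with earlier results of these data known. Genes named were those of the 25 strongest regions, the 10 with most regions, up to 3 of each list and those nearest the 500 bp limit. The sequence at the strongest region is not reported here. Others are said to be chosen after their values were seen, and those with printed sequence or genomic copies were chosen so too. With 1 group there was no test, and comparisons are descriptions. Intervals are 95% Wilson for shares and exact Poisson for counts.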

Additional observations from a re-analysis of the deposited data

How the results depend on the processing

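The count of coding exon regions stayed within 1.5 times of 3137 with a start limit of 200 bp (3822) or 1000 bp (2132), with starts of every biotype (2905) and in each replicate list. It was 518 when the whole region had to be coding. The share of autosomal regions was 15.8% at 200 bp, 8.84% at 1000 bp and 2.15% for wholly coding regions. These settings also change how much sequence can meet the rule, which was not counted for them. The shares therefore do not show whether the deficit of coding exons held. Wholly coding regions had a median rank percentile of 40.8, a median GC of 40.3%, a hexamer in 11.8% and 9 genes with 3 or more regions. The hexamer share was 13.0% with a 200 bp start limit, 6.66% in a window of 50 bp and 17.9% in one of 150 bp, and the median GC was 38.6% at 50 bp. Recurrence in both replicates was 8.93% when at least 50% of the region had to be covered and 6.73% when summits had to lie within 100 bp. With 5 or more regions asked of a gene, 4 genes passed, against 61.

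With 1 replicate left out, which leaves the list of the other, the share of autosomal regions ran from 13.5 to 16.4%, the median rank percentile from 46.1 to 48.9, the share at a q-value below 0.05 from 14.0 to 58.4%, the hexamer share from 11.9 to 12.3%, the median GC from 37.3 to 38.3% and the genes with 3 or more regions from 56 to 84. The causes were not tested.

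No paired analysis was possible because all samples form 1 group. Depth is unknown, no control was analysed here, and signal has no stated scale. The pooled and replicate 1 lists end at 30000 regions. The replicate 2 list ends at 23934, with a lowest coding exon signal of 2.00, so the lists do not end alike. Regions below these ends were not seen.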
